A study of Mus musculus with 16 samples.

Results

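The 34 genes described here encode the unfolded protein response of the endoplasmic reticulum (ER) and the integrated stress response. They were taken by gene symbol from a fixed list, and all 34 were present among the 24420 features of each of the 2 deposited tables. Gene expression had been measured by 3' tag RNA sequencing, which reads each transcript once, close to its 3' end, so that levels of different genes can be compared without a correction for length. The first table held isolated small intestinal enterocytes of C57B6 mice, with 4 WT libraries and 5 libraries of mice null for Mfge8, a secreted glycoprotein that binds integrins. The second held small intestine of C57B6 mice, with 4 WT libraries and 3 libraries of mice null for Cd36, a membrane receptor for long-chain fatty acids. The sources used here do not give age, diet, intestinal segment or the kind of null allele, nor whether each library came from its own mouse.

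The ER folds secreted and membrane proteins with the help of chaperones, disulfide isomerases and a lectin cycle that holds glycoproteins until they are folded. When unfolded protein accumulates, the sensors IRE1 (Ern1), PERK (Eif2ak3) and ATF6 (Atf6) signal to the nucleus: IRE1 splices Xbp1 messenger RNA, ATF6 is cut to release a transcription factor, and PERK phosphorylates the initiation factor eIF2, which favours translation of Atf4. The eIF2 arm is shared with kinases that sense amino acid lack, viral RNA or haem lack, and is called the integrated stress response. Absorptive and secretory cells of the intestine make large amounts of secreted protein and lipoprotein, and the pathway is known to be active in them.

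Genes of the ATF6 and XBP1 arms are known for a promoter element, the ER stress response element (ERSE), here searched as CCAAT, a spacer of any 9 bases and CCACG, on both strands in RefSeq promoters of mouse build GRCm38.p6, each from 250 bases before to 50 bases after the start of a gene. Promoters were listed for 30 of the 34 genes (31 promoters), and not for Atf6, Manf, Hyou1 and Derl1. The ERSE was present in promoters of 9 of the 30 genes (30.0%), against 37 of 27025 genes with a listed promoter (0.137%). The 9 were Hspa5, Hsp90b1, Calr, Canx, Pdia6, Dnajc3, Creld2, Syvn1 and Derl3. The stretches that follow carry it for Hspa5, the central ER chaperone, and for the 3 genes with this element whose expression rose in Mfge8 null enterocytes. They are written 5' to 3' on the strand of the gene, and capitals mark each match, on either strand.
Hspa5 (chr2:34772005-34772063, + strand): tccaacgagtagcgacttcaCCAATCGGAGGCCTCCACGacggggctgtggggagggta
Canx (chr11:50325780-50325838, - strand): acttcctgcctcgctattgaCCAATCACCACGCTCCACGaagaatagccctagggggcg
Calr (chr8:84847055-84847113, - strand): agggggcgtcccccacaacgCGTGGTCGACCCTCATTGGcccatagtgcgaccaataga
Hsp90b1 (chr10:86705513-86705676, - strand): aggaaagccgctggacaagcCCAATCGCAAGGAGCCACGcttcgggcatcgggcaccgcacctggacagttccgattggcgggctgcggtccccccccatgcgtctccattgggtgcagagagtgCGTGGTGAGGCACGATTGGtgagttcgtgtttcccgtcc

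Hsp90b1 carried 2 matches and the other 3 genes 1 each within the stretches shown. The related element ERSE-II (ATTGG, any 1 base, then CCACG; both strands) was found in the promoters of Herpud1 and Dnajb11, and in 12 of 27025 genes (0.0444%). The UPRE core, TGACGTGG, was found in 0 of the 30 genes and in 193 of all genes (0.714%). The ATF4-type element CARE, TGATGNAAN, was found in Asns, Chac1, Herpud1 and Trib3, and in 1215 of all genes (4.50%). Both were searched on both strands. A match describes these letters and does not show that a factor binds there.

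Enterocyte libraries held 1618369 to 2459812 reads on genes and intestine libraries 850297 to 1000694. Values are normalised reads (reads over the size factor of their library), and the 2 tables were normalised separately. Enterocyte libraries of 1 genotype differed by far more than counting error (chi-square over its degrees of freedom 6.26 to 20.2 in 16 pairs), whereas intestine libraries of 1 genotype differed by about sampling noise (0.987 to 1.117 in 9 pairs, 5 of them with p under 0.05). The intestine libraries were therefore counted as 1 preparation per genotype, with no test between them. Mfge8 was at 7.94 to 23.4 in WT and 1.64 to 7.495 in null enterocytes, and Cd36 at 111 to 116 in WT and 6.48 to 15.97 in null intestine. The labelled intestine held little RNA of muscle or stroma: 5 smooth muscle markers summed to 2.07 to 9.95 normalised reads per library. There 5 fibroblast markers summed to 9.05 to 33.3, against 32944 to 34816 for 10 enterocyte markers. In WT enterocyte libraries 8 goblet cell markers summed to 49189 to 81670, close to the 52971 to 81173 of the 10 enterocyte markers. In WT intestine the same goblet cell markers summed to 7590 to 7882.

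In Mfge8 null enterocytes 4 ER chaperones rose, by 1.48 to 1.58 times. They were the lectin chaperones Canx (calnexin) and Calr (calreticulin), which hold glycoproteins during folding, and Hsp90b1 (GRP94) and Hyou1 (GRP170), large chaperones of the ER lumen. Of the 34 genes 31 passed the filter on low values (at least 5 normalised reads in at least 4 libraries). By limma 4 of the 31 were higher at a Benjamini-Hochberg adjusted p of 0.05 over all 9432 genes tested, against 1.58% of all genes tested. None of the 31 was lower past this threshold, against 1.63% of all genes tested, so that a count of 0 lower genes is near that share. In all, 3.21% of genes tested passed in either direction. An unadjusted p under 0.05 was found for 11 of the 31 genes, all higher, against 8.52% of all genes tested that were higher and 7.36% that were lower. The median log2 change over the 31 genes was 0.28, against 0.0010 over all genes tested, and 28 of the 31 changes were above 0, against 50.1% of all genes tested. The genes and lists were chosen with results of these data known, so the count describes this list and is not independent evidence. In bulk RNA a larger share of cells rich in a transcript and more transcript per cell cannot be told apart.

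Canx (chromosome 11, 50293957 to 50325673, GRCm38.p6) was at 509.7, 519.9, 526.8 and 481.5 normalised reads in WT 1 to 4, and at 777.7, 895.6, 759.1, 799.9 and 779.99 in null 1 to 5. The lowest null library thus lay well above the highest WT library. The change was 0.65 on the log2 scale, with a standard error (SE) of 0.12 (limma adjusted p = 0.00751). Calnexin spans the ER membrane and retains glycoproteins that carry a single terminal glucose. Calr (chromosome 8, 84842088 to 84846931) was at 626.6, 676.9, 716.5 and 680.04 in WT and at 1049.98, 1033.7, 928.9, 916.6 and 1059.7 in null libraries. Calreticulin is the soluble counterpart of calnexin in the lumen, and its libraries did not overlap either (log2 0.56, SE 0.13, limma adjusted p = 0.0230).

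Hsp90b1 (chromosome 10, 86690841 to 86705444), which folds integrins and Toll-like receptors, was at 643.0, 786.0, 757.3 and 752.5 in WT and at 940.3, 1102.7, 1172.6, 1076.1 and 1126.9 in null enterocytes. The lowest null library, null 1, lay above the highest WT library, WT 2 (log2 0.56, SE 0.13, limma adjusted p = 0.0299). Hyou1 (chromosome 9, 44379490 to 44392369), which acts as a nucleotide exchange factor for the chaperone BiP, was at 87.7, 113.3, 98.8 and 116.2 in WT and at 150.8, 177.6, 146.8, 149.9 and 190.3 in null enterocytes. Its groups were separate as well (log2 0.65, SE 0.15, limma adjusted p = 0.0308). Canx held its call in all 20 alternative settings, with limma, edgeR or DESeq2 adjusted p of 4.01e-06 to 0.0475. The call of Calr held in 12 of 20 (adjusted p 0.000188 to 0.0900), that of Hyou1 in 12 of 20 (0.00835 to 0.119) and that of Hsp90b1 in 10 of 20 (0.000737 to 0.118). Among single libraries, leaving out WT 1, WT 2 or null 5 left Canx alone among the 34 genes past the threshold, and leaving out WT 3 left Canx and Calr. Without null 1 the call of Calr was lost, without null 2 that of Hyou1, and without null 3 or null 4 that of Hsp90b1.

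**Figure D1:**
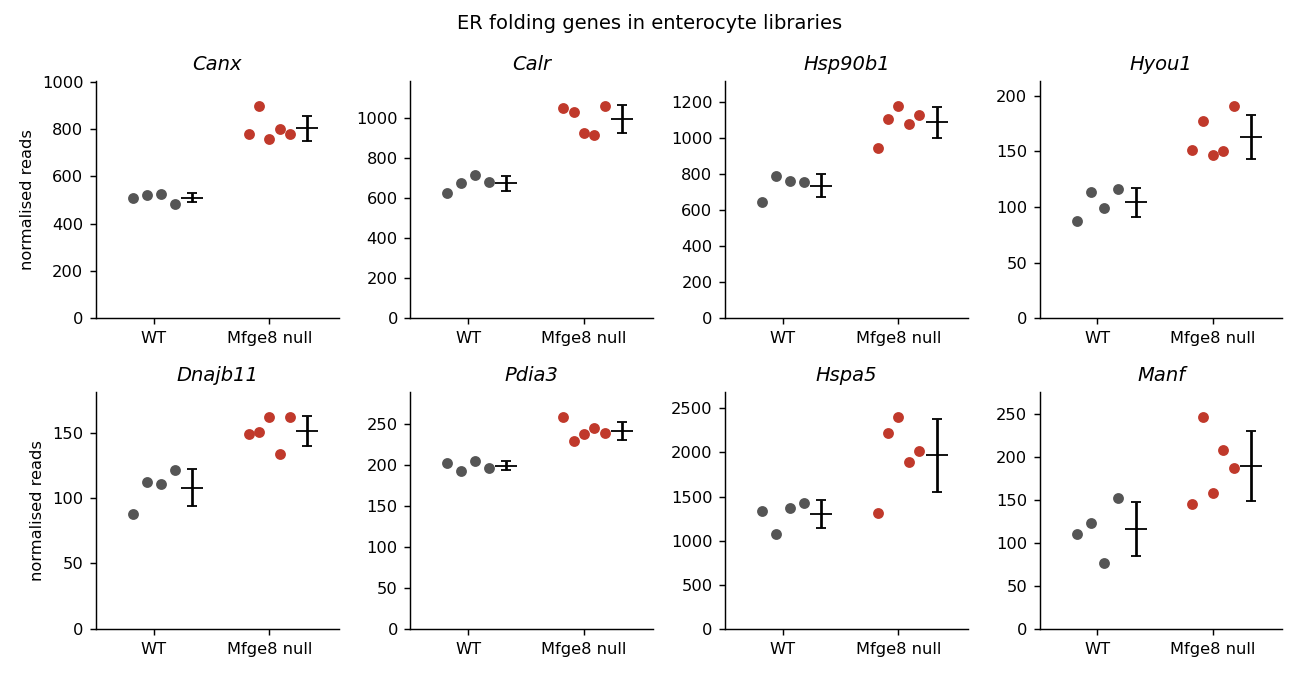
Normalised reads of 8 ER folding genes in each enterocyte library (grey, 4 WT libraries; red, 5 Mfge8 null libraries), with the mean and SD of each group beside the points in black. Every null library lies above every WT library for Canx, Calr, Hsp90b1, Hyou1, Dnajb11 and Pdia3, while for Hspa5 and Manf the groups overlap.

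Of the other 7 chaperones and cofactors none passed the threshold by limma, although all 7 had changes above 0 (4 with an unadjusted p under 0.05). For 2 further genes the libraries did not overlap: with the 4 that rose these made 6 of 31, against 3.35% of all genes tested with every null library above every WT library. No gene of the list had every null library below WT, against 3.07% of all genes tested. Dnajb11, a J-domain partner of BiP, was at 87.7, 112.3, 110.5 and 121.1 in WT and at 148.9, 150.2, 161.8, 133.8 and 161.6 in null libraries. The null values lay above WT by a margin smaller than the range within either group (log2 0.49, SE 0.15, limma adjusted p = 0.0953). Where libraries do not overlap, the 2-sided exact permutation test (126 arrangements) always gives p = 0.0159, the smallest value possible here. It gave this value for each of these 6 genes, and so adds nothing to the lack of overlap.

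Hspa5 encodes BiP, the ER chaperone that also keeps the 3 sensors inactive. It was at 1338.6, 1074.0, 1369.5 and 1427.6 in WT and at 1314.4, 2220.8, 2400.2, 1893.1 and 2016.0 in null enterocytes. Null 1 lay within the WT range and the other 4 null libraries above it, so that the threshold was missed, at limma adjusted p = 0.0989 (log2 0.58, SE 0.18). Without null 1 it passed by limma, and with all libraries it passed by DESeq2 (smallest adjusted p over the alternatives 0.0263, largest 0.280). Manf, a small secreted ER protein that helps BiP hold its clients, had means of 116 ± 31.5 (SD, n = 4) and 189 ± 40.5 (SD, n = 5) normalised reads, with limma adjusted p = 0.0710, and passed by DESeq2 and by limma without WT 4. Sdf2l1, part of an ER complex with Dnajb11, had 29.0 ± 10.3 and 46.0 ± 7.54, with limma adjusted p = 0.136. Creld2 (16.4 ± 4.42 and 22.5 ± 5.55), Dnajb9 (99.0 ± 19.5 and 119 ± 10.7) and Dnajc3 (247 ± 36.9 and 283 ± 17.8) had smaller differences on the log2 scale, of 0.44, 0.28 and 0.20. Dnajb9 represses IRE1 and Dnajc3 inhibits PERK.

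The 4 protein disulfide isomerases, which form and rearrange disulfide bonds, did not pass by limma, edgeR or DESeq2, and 2 of them had an unadjusted limma p under 0.05. Pdia3 (ERp57), which works on glycoproteins bound to calnexin or calreticulin, was at 202.3, 193.4, 205.4 and 196.6 in WT and at 258.6, 229.1, 237.7, 245.2 and 238.7 in null libraries. The groups did not overlap, but at 1.21 times the difference was small (limma adjusted p = 0.296, log2 0.28, SE 0.13). Pdia6 had means of 170 ± 38.5 and 219 ± 24.9, and Pdia4 of 16.8 ± 5.65 and 19.5 ± 9.70. P4hb, which is also the small subunit of the microsomal triglyceride transfer protein that lipidates chylomicrons, was the most abundant of the 34 genes in enterocytes and had nearly equal means (5284 ± 1428 and 5227 ± 867; log2 0.01, SE 0.21).

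Neither the sensors nor the transcription factors passed the threshold. Ern1 fell below the filter on low values, at 4.68, 3.12, 2.35 and 0.993 normalised reads in WT and 1.96, 1.096, 0, 1.07 and 1.64 in null libraries, which is 4 reads or fewer in each. Eif2ak3 was at 36.2, 57.2, 25.9 and 51.6 in WT and at 49.95, 24.1, 32.96, 77.1 and 33.6 in null libraries. The groups overlapped fully (log2 -0.03, SE 0.31, limma adjusted p = 0.981), and the sign of this difference turned in 11 of 20 alternatives. Atf6 was at 85.3, 89.4, 118.4 and 99.3 in WT and at 97.9, 117.3, 99.9, 100.7 and 98.4 in null libraries (log2 0.08, SE 0.16, limma adjusted p = 0.873). All null values of Atf6 fell within the WT range.

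Xbp1, whose spliced product is the transcription factor of the IRE1 arm, was at 434.9, 406.5, 458.6 and 604.6 in WT and at 409.4, 618.2, 480.4, 779.5 and 507.7 in null libraries. WT 4 was above 3 of the 5 null libraries (log2 0.21, SE 0.18, limma adjusted p = 0.634). A 3' tag counts spliced and unspliced Xbp1 together, and does not report translation of Atf4 or cutting of ATF6, so the activity of the 3 arms was not measured. Atf4 was at 472.3, 518.8, 535.4 and 555.9 in WT and at 671.9, 419.8, 676.2, 620.0 and 703.7 in null libraries. Of these, 4 null libraries lay above all WT libraries and null 2 below them (log2 0.23, SE 0.16, limma adjusted p = 0.534). Ddit3 (CHOP), a factor downstream of ATF4 linked to cell death, was at 50.3, 41.6, 35.3 and 39.7 in WT and at 40.2, 37.3, 40.95, 34.3 and 50.03 in null libraries (log2 -0.04, SE 0.20, limma adjusted p = 0.955). The 2 groups covered nearly the same range.

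ER-associated degradation moves misfolded proteins to the cytosol for the proteasome. None of its 6 tested genes passed by limma, edgeR or DESeq2, and 1, Syvn1, had an unadjusted limma p under 0.05. Syvn1 encodes the ubiquitin ligase HRD1 and had means of 96.8 ± 14.4 and 129 ± 19.1 (limma adjusted p = 0.237). Its partner Sel1l had 273 ± 33.5 and 327 ± 47.9, the mannosidase-like Edem1 166 ± 20.7 and 196 ± 26.0, and Herpud1 334 ± 90.7 and 346 ± 97.4. The membrane proteins Derl1 and Derl2 had log2 changes of 0.20 and 0.18, and Derl3 was not tested, at 0 to 1.64 normalised reads over the 9 libraries.

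Targets of the integrated stress response were low in enterocytes apart from Trib3, a pseudokinase that feeds back on ATF4 and CHOP. Trib3 had means of 130 ± 42.0 and 159 ± 18.9 (log2 0.33, limma adjusted p = 0.444). Asns, asparagine synthetase, was at 17.5, 16.6, 3.92 and 11.9 in WT and at 27.4, 14.2, 8.99, 37.5 and 36.9 in null libraries. Its log2 change of 0.93 was the largest of the 31 genes tested, and its SE of 0.46 was larger than that of all but 1 of them (limma adjusted p = 0.334). Chac1, which degrades glutathione, and Ppp1r15a (GADD34), which directs dephosphorylation of eIF2, had 7.69 ± 5.94 and 12.5 ± 9.03, and 7.10 ± 4.18 and 10.6 ± 5.09. Sesn2 was not tested, at 0 to 2.14. None of the 4 tested genes of this group passed by limma, edgeR or DESeq2; limma gave 0 and the other 2 tools 1 with an unadjusted p under 0.05. Sec61b, a subunit of the translocon through which proteins enter the ER, had nearly equal means of 523 ± 32.3 and 506 ± 66.1. Whether the change differed between chaperones and the other roles was not tested.

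**Figure D2:**
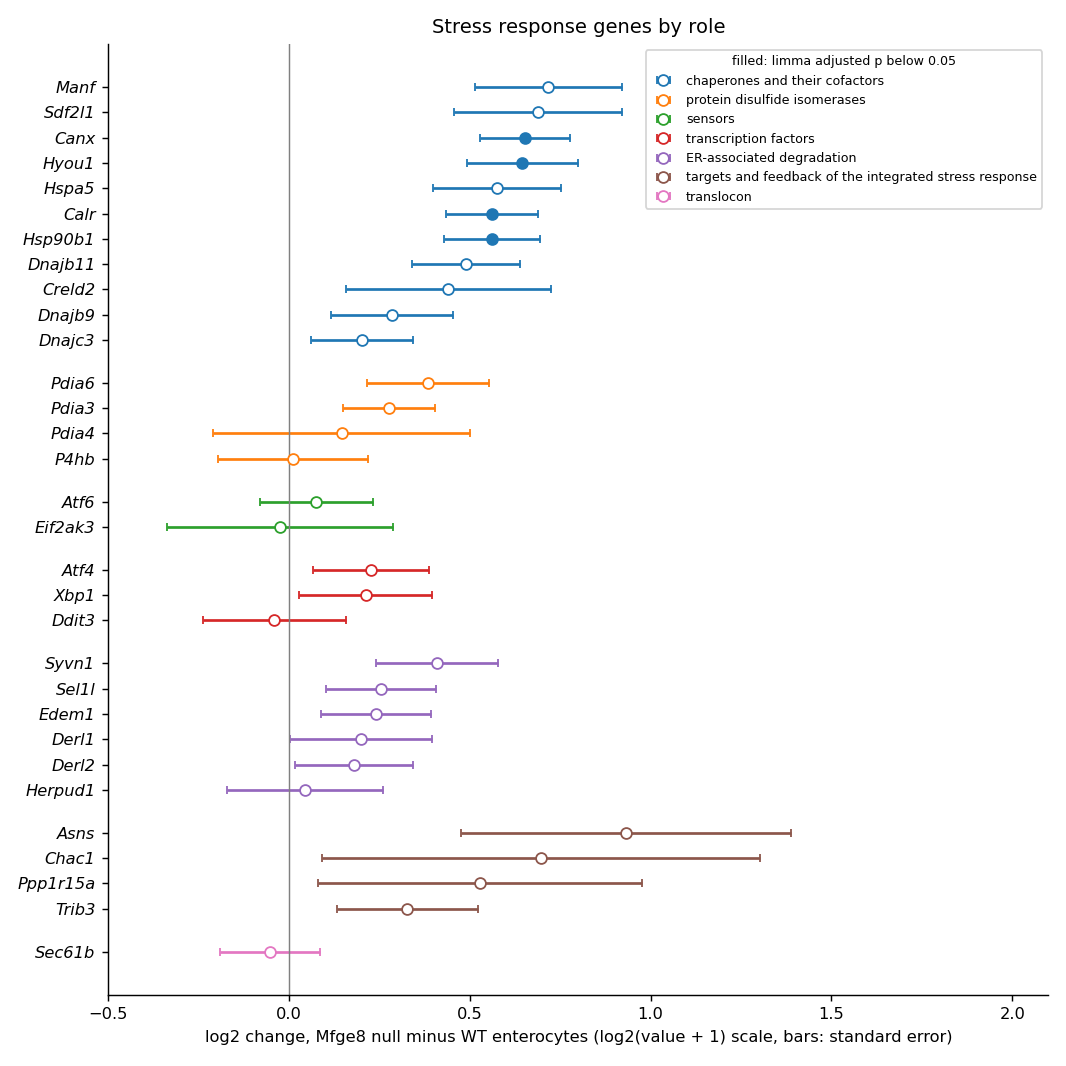
Log2 change between Mfge8 null and WT enterocytes for the 31 tested genes, ordered within each role, with standard errors as bars. Filled points are the 4 genes past the limma threshold, all chaperones, and open points those that did not pass. The 11 chaperones and cofactors lie between 0.20 and 0.72 (median 0.56). The 4 tested targets of the integrated stress response lie between 0.33 and 0.93 (median 0.61).

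The shift was seen in each null library rather than in a single one. Over the 31 genes the median log2 difference from the WT mean was 0.28, 0.39, 0.25, 0.41 and 0.44 in null 1 to 5, while over all genes tested it was 0.0094 to 0.025. Null libraries held 14 to 20 of the 31 genes above all 4 WT libraries, against 22.5% to 25.2% of all genes tested. The share of all normalised reads on the 34 genes was 0.631% to 0.756% in WT and 0.711% to 0.850% in null libraries, and overlapped. P4hb, the most abundant of them, varied from 3503 to 6982 normalised reads among WT libraries.

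Markers of other cells and of intestinal region also differed between the groups. The summed level of 10 plasma and B cell markers was 19.9 to 128 normalised reads in WT and 208 to 528 in null libraries. Of the 5 that were tested 4 had changes above 0, with log2 changes of -0.62 to 2.55. Only 1 of them, the antibody joining chain Jchain, rose, and Cd79a was at 0 in all 9 libraries. Derl3 is on this list too, since plasma cells are rich in it, and stayed at 1.64 or less. The 8 T cell and intraepithelial lymphocyte markers summed to 1135 to 3384 in WT and 3148 to 7353 in null libraries, and none passed by limma (5 higher with an unadjusted p under 0.05) but 3 by DESeq2 (Cd7, Cd8a and Gzma). Goblet cell markers overlapped (49189 to 81670 in WT, 32740 to 104703 in null), as did Paneth cell markers (966 to 3779 and 668 to 3428), of which edgeR called 1 higher (Ang4) and limma and DESeq2 none. All 7 enteroendocrine markers had log2 changes below 0 (median -0.53) and none passed by limma, edgeR or DESeq2, with 3 lower at an unadjusted p under 0.05. The 4 tested stem and proliferation markers had a median of 0.72 and none passed by these tools, with 2 higher and 1 lower at an unadjusted p under 0.05. A regional score, the mean log2 of proximal minus that of ileal markers, was -0.96 to 2.32 in WT and -2.54 to 1.38 in null libraries. The ileal marker Slc51b rose (263 ± 10.01 to 466 ± 83.0, limma adjusted p = 0.00615) and the proximal marker Onecut2 fell (153 ± 23.9 to 72.9 ± 43.3, limma adjusted p = 0.0401). Onecut2 was not called by edgeR, and 2 of the 5 tested proximal markers had changes above 0. With the score as a covariate Canx was the 1 gene of the list that passed, and the median log2 change of the list was 0.31. Jchain, which is part of the plasma and B cell sum, had means of 58.5 ± 43.1 and 294 ± 126 (limma adjusted p = 0.00331). The part of the immune markers in the chaperone result was not tested.

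A wider list of 127 genes around the pathway was read for comparison, of which 126 were matched and 112 tested in enterocytes. None of the 112 passed by limma or edgeR and 1 by DESeq2, and by limma 11 were higher and 3 lower with an unadjusted p under 0.05 (8.52% and 7.36% of all genes tested). Their median log2 change was 0.11. By group, the median was 0.16 for 23 other folding genes, 0.13 for 27 genes of translocation and signal peptide removal, 0.08 for 19 other degradation genes, 0.23 for 23 other ATF4 and CHOP targets and -0.02 for 20 sensors, eIF2 kinases and related factors. Every null library lay above every WT library for 2 of the 112, both of translocation, against 3.35% of all genes tested. Sec11c, a signal peptidase subunit and the gene DESeq2 called, had means of 134 ± 8.35 and 194 ± 27.1 (limma adjusted p = 0.0712), and Sec61a1, the pore of the translocon, 983 ± 80.5 and 1262 ± 105 (limma adjusted p = 0.183; both named after their values were seen). Chaperones of other compartments had medians near 0: -0.01 for 13 cytosolic heat shock genes and -0.05 for 9 mitochondrial chaperones and proteases. None of these passed by limma, edgeR or DESeq2, and 1 heat shock gene and 0 mitochondrial genes had an unadjusted limma p under 0.05.

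Among the 11 tested genes with an ERSE in their listed promoter, 8 belonged to the 34 genes and 3 did not. The 8 had a median log2 change of 0.50 (0.20 to 0.65), and 3 of them rose. The other 3, Hnrnpa3, Pan2 and Spats2l, had changes of -0.16, 0.21 and 0.40, and none passed by limma (smallest adjusted p 0.706). The 19 tested genes of the list with a listed promoter and no ERSE had a median of 0.24, and none passed. They include Dnajb11 and Herpud1, which carry ERSE-II. Hyou1, which rose, and Manf had no listed promoter and are in neither set. These sets are small, and the difference between them was not tested.

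In Cd36 null intestine most of the folding genes stayed close to WT. The median log2 ratio over the list was -0.10, against -0.0044 over all genes tested. The share of normalised reads on the 34 genes was 0.673% to 0.691% in WT and 0.631% to 0.639% in null libraries, lower in each null library than in each WT library. Of the 34 genes 30 reached at least 5 normalised reads in at least 3 libraries. A ratio past 1.5 in either direction was found for 1 of these 30, against 10.8% of all 9314 genes tested (4.4% higher and 6.38% lower). It was Chac1, which was lower, with 37 reads over the WT libraries and 19 over the null libraries (ratio 0.648, 95% exact interval 0.352 to 1.16, which covers counting error only). Its libraries overlapped, at 5.196 to 16.5 in WT and 4.26 to 7.401 in null, and without WT 2 or null 2 no gene of the list was past 1.5. All intervals of this comparison cover counting error only and not the spread between mice.

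Null libraries lay below all WT libraries for 4 of the 30 genes and above them for 2, against 7.91% and 8.61% of all genes tested. Counts this small are near the background and say little about the list. Atf4 was at 568.6, 598.9, 622.4 and 676.2 in WT and at 487.7, 475.0 and 470.9 in null libraries, a ratio of 0.776 (0.727 to 0.828). All 3 null values were lower than the lowest WT value. Hyou1 was at 55.7, 57.8, 49.9 and 50.3 in WT and at 40.7, 40.5 and 36.1 in null (ratio 0.730, 0.579 to 0.917), and was thus lower here and higher in Mfge8 null enterocytes. Pdia6 had a ratio of 0.858 (0.774 to 0.949) and Canx of 0.915 (0.856 to 0.978). The genes above WT were the degradation factor Sel1l, at 1.109 (1.004 to 1.22), and Sec61b, at 1.191 (0.932 to 1.52).

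BiP was nearly level in the intestine preparations, with Hspa5 at 923.0, 893.1, 910.3 and 881.5 in WT and at 922.0, 918.0 and 948.2 in null (ratio 1.031, 0.981 to 1.083). Hsp90b1 (0.926, 0.859 to 0.998), Calr (0.918, 0.824 to 1.021), Pdia3 (0.936, 0.864 to 1.014) and P4hb (0.976, 0.927 to 1.027) overlapped between genotypes. Xbp1 had a ratio of 0.834 (0.736 to 0.944), also with overlap, at 138.5 to 176.6 in WT and 118.4 to 160.8 in null. Asns had 78 reads in WT and 46 in null (ratio 0.745, 0.506 to 1.086), and Trib3 91 and 68 (0.944, 0.679 to 1.306). Eif2ak3 (0.995) and Ddit3 (0.938) had intervals that included 1. The 4 genes below the filter were Ern1 (10 reads in WT and 2 in null), Derl3 (2 and 1), Sesn2 (5 and 4) and Ppp1r15a (9 and 12).

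**Figure D3:**
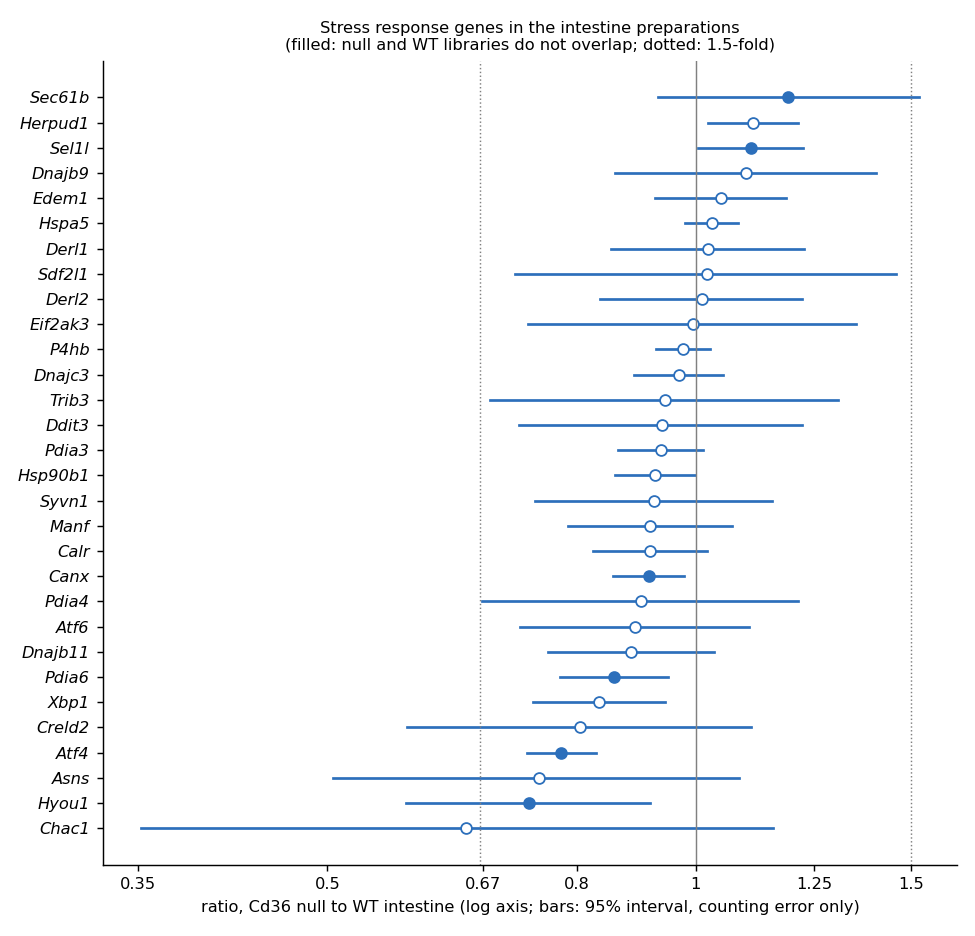
Ratio of Cd36 null to WT intestine for the 30 genes above the filter on a log axis, with 95% intervals for counting error as bars and 1.5-fold as dotted lines. Filled points are the 6 genes whose null and WT libraries did not overlap, and Chac1 is the 1 gene beyond a dotted line.

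Of the 112 wider pathway genes measured in intestine, 3 were higher and 6 lower past 1.5-fold, against 4.4% and 6.38% of all genes tested, so that the counts do not set this list apart. The largest difference was in Ern2, the epithelial form of the IRE1 sensor known from mucus-secreting cells, at 16.5 to 32.2 normalised reads in WT and 6.33 to 8.33 in null (100 and 23 reads, ratio 0.290, 0.176 to 0.461). Goblet cell markers as a list went the other way, with sums of 7590 to 7882 in WT and 9018 to 9246 in null. Mthfd2, a mitochondrial folate enzyme and ATF4 target, was at 33.04 to 36.5 in WT and 11.8 to 28.7 in null (139 and 58 reads, ratio 0.527, 0.381 to 0.721). Its null libraries lay below all WT libraries. Gpt2, a mitochondrial alanine aminotransferase, had 24 and 8 reads (ratio 0.421, 0.163 to 0.969), and Eif2ak4 (GCN2), the kinase that senses amino acid lack, had 17 and 30 (ratio 2.23, 1.19 to 4.31). Other markers moved in intestine as well: 4 of 4 measured tuft cell markers were 1.84 to 3.49 times higher in null, 4 of 4 mast cell markers 1.72 to 11.8 times, and 3 of 8 T cell markers were lower past 1.5-fold. Summed markers were also apart for enteroendocrine cells (299 to 329 in WT, 415 to 422 in null), stem and proliferating cells (293 to 328, 207 to 229) and fibroblasts (19.2 to 33.3, 9.05 to 11.7). The same held for ileum (983 to 1046, 689 to 748) and proximal small intestine (1388 to 1478, 1595 to 1637). Single regional markers went both ways: of 5 ileal markers 2 were lower and 1 higher past 1.5-fold (ratios 0.248 to 3.14). Proximal markers had ratios of 0.669 to 1.35. The part of these cells in the values above was not tested. Whether any of these differences exceeds the spread between mice was not tested.

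Levels in WT enterocytes and WT intestine can be set side by side as CPM (normalised reads scaled to an equal library total), with the limit that the tables were normalised separately and that no test was made. P4hb led in enterocytes, at 2009 to 3690 CPM, followed by Hspa5 (590 to 819), Hsp90b1 (340 to 432) and Calr (331 to 389.9). In intestine Hspa5 led, with a mean of 1016 CPM, followed by P4hb (979), Atf4 (695) and Canx (604). In enterocytes the ranges of Hsp90b1 and Calr overlapped, as did those of Sec61b, Atf4, Canx and Xbp1, which came next, while P4hb and Hspa5 stood clear of the gene after them. In intestine the ranges of Hspa5 and P4hb overlapped, and so did those of Atf4 and Canx. For 6 of the 34 genes every WT enterocyte library was above every WT intestine library, and for 15 the reverse held. The shares over all genes were not counted, so these counts do not tell whether the list differs from other genes. On the intestine side the libraries were counted as a single preparation, so their range does not cover a spread between mice. Sec61b had the largest ratio of means, 7.10 times higher in enterocytes (284 and 39.97 CPM), followed by P4hb (2.91) and Trib3 (2.70). Pdia3 had the lowest, at 0.264 (108 and 409 CPM), followed by Pdia4 (0.289) and Creld2 (0.304). The part of goblet cell RNA in these levels was not tested.

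**Figure D4:**
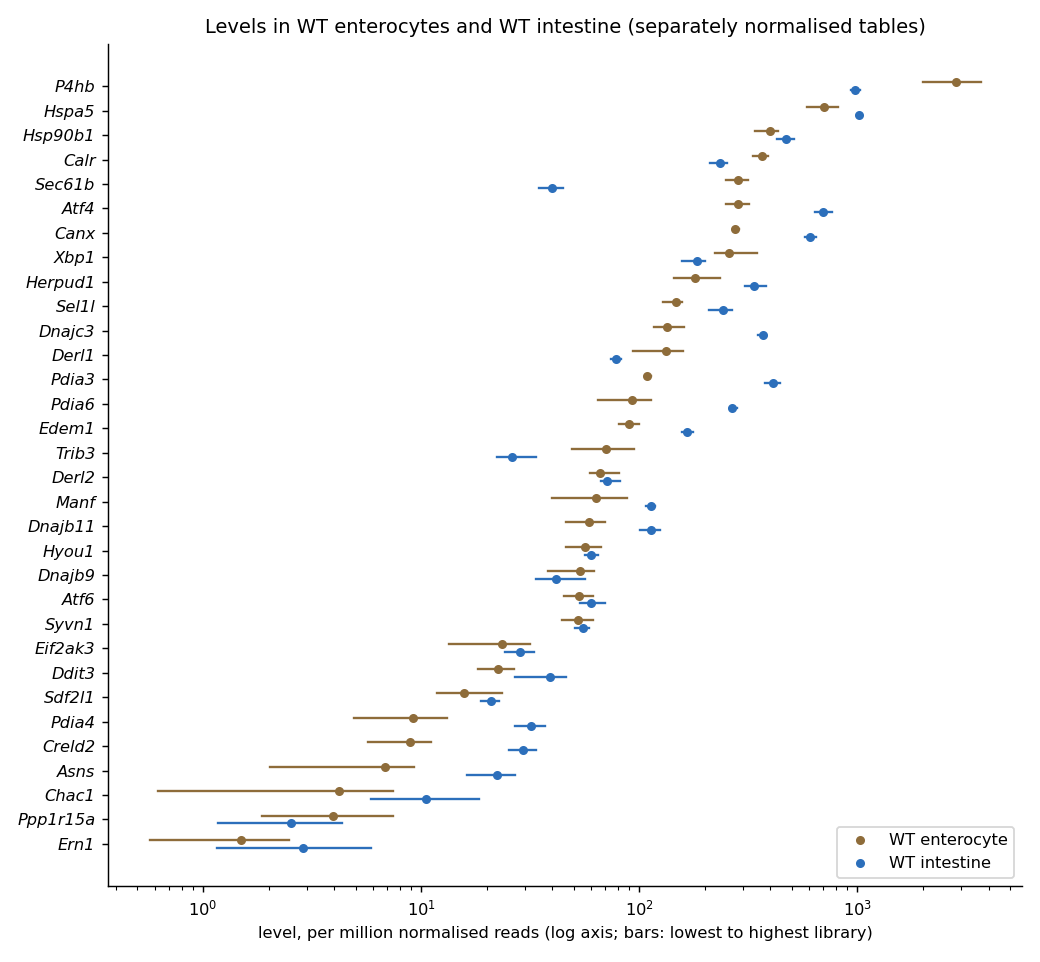
Levels of 32 of the 34 genes in CPM in WT enterocytes (brown) and WT intestine (blue), on a log axis, with the mean as a point and the lowest to highest library as a bar. The tables were normalised separately; Sec61b and P4hb stand to the right in enterocytes, and Pdia3 and Pdia6 to the right in intestine.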

How the data were processed

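RNA was sequenced as 3' tag libraries, per the labels' protocols. The submitters' processing notes name Trimmomatic 0.38.1, HISAT2 2.1.0, HTSeq 0.91, DESeq2 2.11.40 and build mm10; their settings, strandedness and any use of molecular identifiers are not given in the sources used here. The deposited values were a normalised signal, made by the authors as reads divided by a size factor: 100% of values were whole multiples of the worth of 1 read to within 1e-06, and whole reads were recovered. For WT 4 and null 3 of the enterocytes that factor is close to 1 and the step less certain.

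Enterocytes were tested with limma 3.58.1 (R 4.3.3, with a trend) on log2(value + 1), a scale that understates changes of low genes, over genes at 5 or more in at least 4 libraries. In intestine, summed reads were compared as ratios, since libraries of 1 genotype agreed at about sampling noise. Reads are not independent molecules. Whether libraries came from separate mice is not stated, so p-values reflect variation among libraries that may be technical. Alternatives used edgeR 4.0.16 and DESeq2 1.42.0 on recovered reads, other filters, pseudocounts, scalings and covariates, and left out single libraries. On simulated enterocyte data of 9261 genes, limma found 10.4% of the 1.5-fold, 53.7% of the 2-fold and 92.4% of the 4-fold changes. The simulation gave all genes the same spread between libraries (dispersion 0.0522), so these rates need not hold for genes that vary less or more.

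Members and lists were chosen with earlier results of these data known. Enterocyte values in every library are given for members that passed or did not overlap, for sensors and transcription factors, and for Hspa5 and Asns, added after their values were seen. Older symbols were matched through RefSeq; Nars1 was not matched.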

Additional observations from a re-analysis of the deposited data

Results flagged for a closer look

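In 2 of 62 groups of enterocyte libraries, 1 library lay apart from the others by Dixon's test at 95%, where chance gives about 1 in 20. Sdf2l1 was at 44.4 normalised reads in WT 1, against 22.7 to 24.8 in the other 3 WT libraries, and the null libraries were at 38.5 to 58.1. Atf6 was at 117 in null 2, against 97.9 to 100.7 in the other 4 null libraries, and within the WT range.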

How the results depend on the processing

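In enterocytes 4 genes of the list passed. The count was 6 with DESeq2 and 1 with a replicate block, with the regional score as covariate and with scaling to CPM; leaving out 1 library gave 1 to 5. Over all genes 303 passed. That number was 430 with DESeq2, 323 with scaling to CPM, 169 with the regional score and 140 to 388 without 1 library. Scaling to CPM moved the share of higher calls from 49.2% to 34.1%, and the median of the list from 0.28 to 0.19, while that of all genes moved from 0.0010 to -0.087. The replicate numbers showed no clear pairing of the libraries (correlations of same-numbered deviations -0.12, -0.07, 0.21 and 0.09). For replicate 3 this value was above the highest correlation with another null library (0.14), and for the other replicates it was below. So few values cannot show that the libraries were unpaired. The block gave 229 calls over all genes. Among the 12 genes followed singly, the sign turned for Eif2ak3 at 0.015, 0.028 and 0.032 (edgeR, DESeq2 and edgeR with the authors' size factors), 0.037 (replicate block), 0.049 (regional score), 0.21 (edgeR without WT 4 and null 3, chosen after seeing the data), while leaving out single libraries gave -0.26 to 0.15. It turned for Atf6 at -0.015 (CPM, a move of about the size of that shift of all genes) and for Ddit3 at 0.016 and 0.051 without null 4 or WT 1. In intestine 1 gene of the list was past 1.5-fold, 4 past the lower fold tried and 0 past 2-fold. The shares of all genes tested were 10.8%, 27.7% and 3.09%. Past 1.5-fold were 4 genes of the list without a filter and 0 with a filter of 20, against 34.5% and 4.54% of all genes. The larger counts at looser settings thus do not set the list apart. Leaving out 1 intestine library gave 0 to 1 gene of the list. No paired analysis was possible there because the libraries of a genotype were counted as 1 preparation and the ratios come from no test. Depth limits the low genes most: Ern1, Derl3 and Sesn2 missed the filter, and without it none of them passed.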

Other observations

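Bag3, a cochaperone of the cytosolic heat shock protein HSP70, was the 1 gene of 13 cytosolic heat shock genes with every null enterocyte library above every WT library, at 61.9 ± 8.62 (SD, n = 4) in WT and 91.1 ± 11.0 (SD, n = 5) in null, and did not pass (limma adjusted p = 0.0960; named after its values were seen). Mthfd2 had means of 17.5 ± 7.30 in WT and 35.5 ± 12.6 in Mfge8 null enterocytes (limma adjusted p = 0.0998), whereas its ratio in Cd36 null intestine was 0.527. Agr2, a disulfide isomerase of mucus-secreting cells, had 362 ± 125 and 245 ± 102 (limma adjusted p = 0.316) in enterocytes.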
